A study of Mus musculus with 2 samples.

Results

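CD8 T cells of mouse epididymal fat were selected from single-cell libraries by transcript counts, and 619 barcodes were kept of 26186 deposited. A barcode had to carry at least 1500 unique molecular identifiers (UMIs, each tagging 1 captured transcript) and 500 genes, with at most 15% mitochondrial UMIs. It also needed at least 2 UMIs summed over Cd3d, Cd3e and Cd3g, at least 2 over Cd8a and Cd8b1, and none of Cd4. Macrophage C1q transcripts had to stay below 10 and collagen and decorin transcripts below 30 per 10000 UMIs of the barcode. The members were therefore chosen by measured values, and the levels of these rule genes are given below as description. The knockout library gave 351 members and the wild-type library 268.

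The libraries held stromal vascular cells, the non-adipocyte fraction released by collagenase, from epididymal white fat of mice fed a high-fat diet for 10 weeks. The knockout mice carried a conditional deletion of Camk2d, the gene of the delta chain of CaM kinase II (a kinase switched on by calcium), in myeloid cells, and the wild-type mice were fed the same diet. The labels give neither the Cre driver, the deleted exons, the age or strain of the mice, nor how many were pooled, and one free-text field names embryonic hindlimb where every other field names fat. Both libraries were made with 3′-end chemistry. There was 1 library per genotype, so genotype and library preparation cannot be told apart. No difference between genotypes could therefore be tested, and every interval below is a 95% interval that covers counting error only.

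CD8 T cells recognise peptides on MHC class I through the T cell receptor, with CD8 as coreceptor, and kill target cells with granzymes and perforin or signal through chemokines and interferon gamma. In fat of obese mice they are known to accumulate and to take part in macrophage recruitment. Cells recently arrived from blood and lymph keep Ccr7 and Il7r, while cells stimulated for long periods by antigen carry Pdcd1, Lag3 and Tox.

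The libraries differed in depth and in how much transcript of other cells each barcode held. Median UMIs per member were 6044 in knockout (2414 to 49771) and 4568 in wild-type members (1766 to 65460), and the summed totals were 2666364 and 1414901. Of all deposited barcode sequences 48 occurred in both libraries, among them those of 2 knockout members, whose wild-type namesakes were no members. A doublet caller gave a score of at least 0.25 to 4 members in each library, and these were kept. When all members were clustered together, 20 knockout and 18 wild-type members fell in a mixed cluster with Mzb1, Ly6d and Cd74 among its leading genes. These members were kept too. Of the 14 measured macrophage and monocyte markers, 13 were at least 1.5-fold lower in knockout members, and their summed level ran from 0 through a median of 7.65 to 181 per 10000 UMIs among knockout members and from 6.37 through 28.1 to 333 among wild-type members. Of 12 progenitor and fibroblast markers 11 were lower, with medians over members of 5.48 and 19.7 per 10000 UMIs. Haemoglobin Hbb-bs, which T cells do not make, was found in 100% of members of both libraries, at 1732 and 4504 CPM (UMIs of a gene summed over the members of a library, per 1000000 of all their UMIs). The part that this other-cell RNA and the depth play in the differences below was not tested. Camk2d itself stood at 29.5 CPM in barcodes gated as macrophages of the knockout and 51.9 in those of the wild type. As the deleted exons are not given, reads from the 3′ end cannot tell whether the transcript was intact.

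Markers outside the rule were those of T cells, but Ccl5 and the receptor genes do not single out CD8 cells. Ccl5, a chemokine that memory CD8 cells store as message, was found in 97.7% of knockout and 98.5% of wild-type members. Its level per knockout member ran from 0 through a median of 109.6 to 873 per 10000 UMIs, and per wild-type member from 0 through 69.1 to 914. The alpha chain constant gene Trac was at 283 (263 to 304) and 213 (190 to 239) CPM, and the beta chain gene Trbc2 at 1786 (1736 to 1838) and 1115 (1060 to 1171). Foxp3, which defines regulatory T cells, was at 0 in both libraries. The gamma delta T gene Trdc was found in 0.570% and 5.22% of members, and the natural killer receptor gene Ncr1 in 1.43% and 2.24%. The rule genes themselves read 266 and 242 CPM for Cd8a, 672 and 429 for Cd8b1, and 487 and 326 for Cd3e.

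Near the limit of the rule the groups were of unequal size. Barcodes that met every limit but had 1 Cd8 UMI numbered 35 for the knockout and 115 for the wild-type library, against 50 and 101 members with exactly 2. Ccl5 in barcodes with 1 Cd8 UMI was at 9659 and 6959 CPM, beside 7298 and 7745 in members with 2 and 12220 and 8212 in members with 3 or more. In Cd3 barcodes with neither Cd8 nor Cd4 it was at 4465 and 2496. The C1q and collagen limits alone removed 43 and 50 further barcodes, and Cd4 removed 10 and 1.

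CD8 cells made up 4.37% (3.93 to 4.84, Clopper-Pearson) of the 8032 barcodes that passed the depth limits in the knockout and 2.05% (1.81 to 2.31) of the 13085 in the wild type. Among barcodes with Cd3 transcripts the shares were 30.3% (27.7 to 33.0) of 1159 and 30.3% (27.3 to 33.5) of 884. Thus the share of barcodes that passed the depth limits was higher in the knockout by 1.09 on the log2 scale. This log2 ratio was 0.68 with limits of 2500 UMIs and 800 genes and 2.24 after thinning every barcode to 1500 UMIs. The share within T cells was level at the stated limits. The second comparison turned on the Cd8 limit. With at least 1 Cd8 UMI the shares of Cd3 barcodes were 33.3% and 43.3%, with at least 3 they were 26.0% and 18.9%, and with every barcode thinned at random to 1500 UMIs they were 14.1% and 8.87%. The share of CD8 cells among T cells therefore had no stable direction. CD4 helper cells without Foxp3 took 28.0% and 5.20% of the same Cd3 barcodes, and gamma delta cells 4.40% and 12.7%.

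Across the transcriptome, UMIs were summed over the members of each library and divided by their total, which gives the CPM used throughout. Of 2467 genes at a mean of 50 CPM or more, 18 (0.73%) exceeded the wild-type level 2-fold in knockout members and 79 (3.2%) fell short of it 2-fold, and the median log2 ratio was 0.10. The 18 included Gzmb, Ctla4, Cd5, Ly6a, Pfn1, Serpina3g, Alyref, the chemokines Ccl3 and Ccl4, the replication genes Hist1h2ab, Hist1h2ae, Hist1h2ap, Hist1h1b and Pclaf, and the antibody genes Igha, Igkc and Jchain, which stem almost wholly from 1 barcode. Among the lower genes, those with the lowest ratios included Gpnmb, Ctsl, Mmp12, Folr2, Trem2, Fstl1, Lum, Col1a2, Plin2, Lgmn and Fabp5. These are genes of macrophages or of stromal matrix. A few barcodes weighed heavily on them. For Gpnmb, 847 of the 986 wild-type UMIs and for Ctsl 1426 of 1660 came from 1 wild-type barcode of 65460 UMIs, while Fstl1 was spread thinly with at most 3 UMIs per barcode. For this reason a second count used only the 884 member-side genes, added after the values were seen, which were at least as abundant in members as in macrophage, progenitor and B cell barcodes of both libraries. These took 24.9% of member UMIs in knockout and 21.2% in wild-type members. Of them 10 (1.13%) lay above 2-fold in knockout members and 1 (0.113%), the noncoding Gm26917, below it, with a median of 0.23. Dividing by the member-side total in place of all UMIs lowers every log2 ratio by 0.24, so that ratios between 0 and 0.24 change sign under that scaling and genes just past 1.5-fold no longer pass. The ratio of Trbc2, 0.68 (0.60 to 0.76), gives a scale for what follows, since many T cell genes stood near it.

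**Figure D1:**
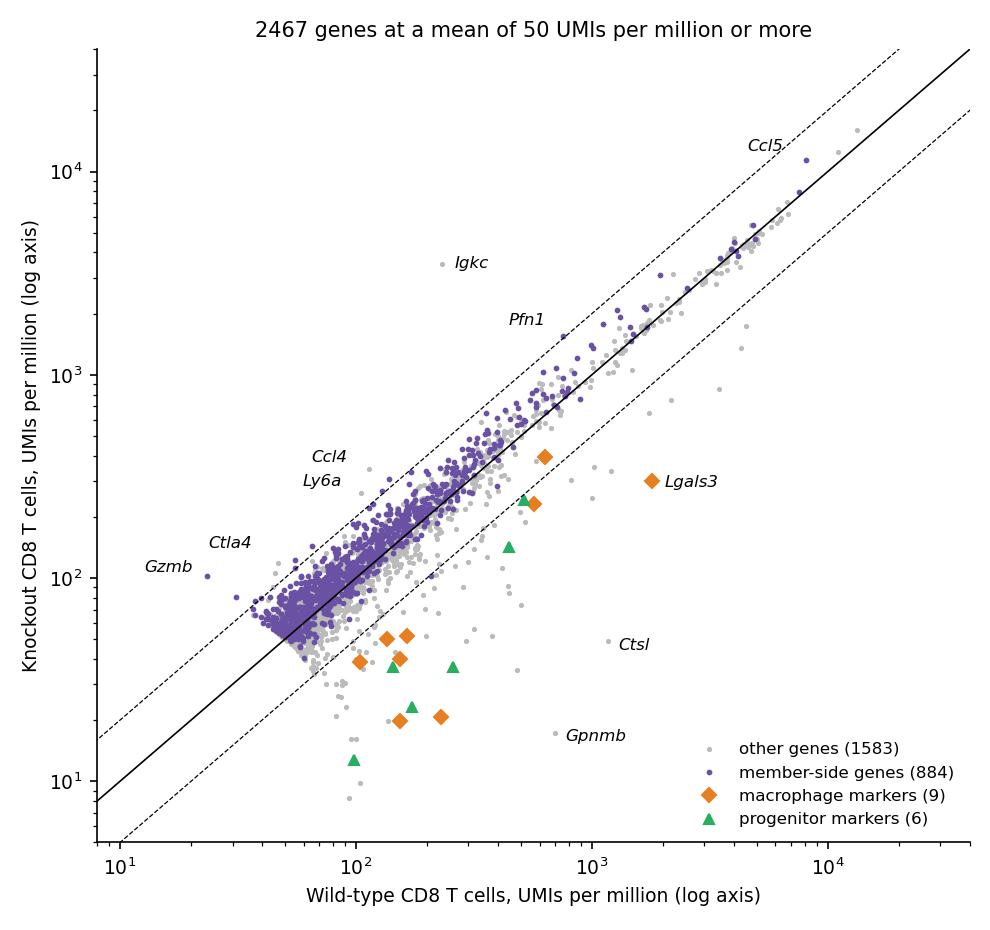
Each point is 1 of 2467 genes, with CPM in wild-type members on the horizontal and in knockout members on the vertical log axis. The solid line marks equal levels and the dashed lines 2-fold, and the macrophage and progenitor markers lie below the line of equality while Gzmb, at 102 and 23.3, lies farthest above it among member-side genes.

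Among granule genes the ratios of the granzymes differed in size. Gzmb, a serine protease that enters target cells through perforin pores, was at 102 CPM (90.6 to 115) in knockout and 23.3 (16.1 to 32.8) in wild-type members. That is a log2 ratio of 2.13 (1.61 to 2.70), the highest of any member-side gene at 50 CPM or more, and no single barcode carried it, as the fullest held 15 of 273 and 4 of 33 UMIs. With members thinned to 1500 UMIs, 11.7% (8.51 to 15.5) of knockout and 3.36% (1.55 to 6.28) of wild-type members had a Gzmb UMI, against 0% and 0.585% of macrophage barcodes (unthinned 27.9% and 7.46% of members). Gzmk, a granzyme typical of memory-like CD8 cells in inflamed tissue, was at 220 (203 to 239) and 113 (96.2 to 132) CPM, and was found in 31.1% and 13.4% of thinned members. Its log2 ratio was 0.96 (0.71 to 1.22). Gzma was at 23.3 and 42.4 CPM, but it was carried by few cells, 18 and 5, and 33 of the 60 wild-type UMIs sat in 1 barcode. Without the fullest barcode of each library Gzma was level at 19.0 and 19.2 CPM. The pore former Prf1 was at 73.5 (63.6 to 84.6) and 54.4 (43.0 to 68.0) CPM, Gzmm at 76.9 and 52.3, and the granule protein Nkg7 at 1407 (1362 to 1453) and 992 (941 to 1046). Of the 18 cytotoxic granule genes 17 were measured at the list floor of 10 CPM and 10 UMIs in the higher library. At 1.5-fold, 5 were higher (Gzmb, Gzmk, Serpinb6b, Rab27a and Stx11) and 3 lower (Ctsd, Lamp1 and, through that barcode, Gzma), with a median of 0.44. Over all 7928 genes at that floor 9.47% were higher and 13.3% lower at 1.5-fold, with a median of 0.04. These shares are the scale for the counts of every list below. Ctsd and Lamp1 encode lysosomal proteins that macrophages carry in quantity, and both were more abundant in macrophage barcodes than in members.

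The 250 bases upstream of the RefSeq start are shown for the granzymes that differed and for the abundant granule gene Nkg7, to display the sequence in front of the transcripts discussed. They are from GRCm38.p6 and read 5′ to 3′ on the strand of the gene. Capitals mark matches on either strand to TGTGGT (RUNX), GGTGTGA (T-box) or TGANTCA (AP-1), and no matches overlapped.
Gzmb, chr14:56262335-56262584, minus strand: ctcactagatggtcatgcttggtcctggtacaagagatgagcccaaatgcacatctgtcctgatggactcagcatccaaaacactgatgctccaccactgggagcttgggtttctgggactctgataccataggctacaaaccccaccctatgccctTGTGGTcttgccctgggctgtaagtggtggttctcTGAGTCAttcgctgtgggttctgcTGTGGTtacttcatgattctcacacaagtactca
Gzmk, chr13:113180966-113181215, minus strand: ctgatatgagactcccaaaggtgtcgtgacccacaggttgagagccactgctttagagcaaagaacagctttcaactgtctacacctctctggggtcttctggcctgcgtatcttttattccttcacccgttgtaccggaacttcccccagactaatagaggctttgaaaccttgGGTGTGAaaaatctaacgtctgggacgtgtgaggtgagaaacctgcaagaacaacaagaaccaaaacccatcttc
Nkg7, chr7:43436888-43437137, plus strand: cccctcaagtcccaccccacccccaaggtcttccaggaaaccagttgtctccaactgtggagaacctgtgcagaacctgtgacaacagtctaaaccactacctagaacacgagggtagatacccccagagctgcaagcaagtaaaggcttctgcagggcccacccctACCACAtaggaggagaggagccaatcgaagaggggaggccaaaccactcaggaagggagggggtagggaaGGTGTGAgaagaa
Gzmb held 2 RUNX matches and 1 AP-1 match, Gzmk 1 T-box match, and Nkg7 1 match each for RUNX and T-box. Of all 32851 RefSeq windows of this length 14.1% held the RUNX letters, 3.33% the T-box letters and 6.75% the AP-1 letters. The interferon-response element was in none of the 3 and in 2.98% of all windows. The windows of Pdcd1 and Ctla4 held none of these motifs. The matches describe the letters only.

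The chemokines and cytokines that members made were led by Ccl5, at 11460 CPM (11330 to 11590) in knockout and 8054 (7906 to 8203) in wild-type members, log2 ratio 0.51 (0.48 to 0.54). Ccl5 draws T cells and monocytes, and its level in macrophage barcodes was 49.5 and 73.8 CPM. Xcl1, which attracts cross-presenting dendritic cells, was at 106.5 and 106.7 CPM. It was found in 8.55% (5.84 to 11.98) of knockout and 16.04% (11.9 to 21.0) of wild-type thinned members (unthinned 25.4% and 32.8%), so that the share was lower in the knockout while the summed level was equal. Ifng, the macrophage-activating interferon, was at 68.6 (59.1 to 79.3) and 53.01 (41.7 to 66.5) CPM, and its ratio of 0.37 (-0.02 to 0.78) was not distinguishable from equality at this depth. Ccl4 was at 345 and 114 CPM and Ccl3 at 118 and 46.7, but 1 knockout barcode held 458 of the 920 Ccl4 UMIs and 276 of the 315 Ccl3 UMIs. Without it the knockout levels were 174 for Ccl4 and 14.7 for Ccl3, beside 95.6 and 20.8 when the fullest wild-type barcode was left out, so that Ccl3 was no longer higher. Of 20 genes listed 12 were measured, with 2 higher (Ccl3 and Ccl4), 3 lower (Tnf, Tnfsf8 and Ccl9) and a median of 0.03. Csf2 and Il17a were at 0 in both libraries.

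Among inhibitory receptors, Lag3 and Ctla4 stood apart from Pdcd1. Lag3, a receptor for MHC class II that restrains activated T cells, was at 38.3 CPM (31.2 to 46.4) in knockout and 7.77 (3.88 to 13.9) in wild-type members, with UMIs in 63 and 10 members and a ratio of 2.30 (1.40 to 3.35). Ctla4, which competes with Cd28 for its ligands, was at 106 (93.8 to 119) and 45.2 (34.8 to 57.8) CPM, ratio 1.23 (0.83 to 1.64). Pdcd1, the PD1 receptor gene, was nearly level at 87.8 (76.9 to 99.8) and 78.5 (64.5 to 94.5) CPM, ratio 0.16 (-0.17 to 0.50), although it was higher in the knockout within each of the clusters compared below. Tox, a nuclear factor of chronically stimulated cells, was at 214 (197 to 233) and 165 (145 to 188) CPM. Havcr2 was low in both libraries, at 19.5 and 9.90 CPM. In thinned members the Lag3 share was 8.26% and 1.87% and the Pdcd1 share 14.8% and 10.8%, while at most 0.167% of macrophage barcodes had either message (unthinned 17.9% and 3.73% for Lag3, 35.9% and 26.1% for Pdcd1). Of the 20 genes of this list 16 were measured, with a median of 0.38. At 1.5-fold 5 were higher (Lag3, Havcr2, Ctla4, Tnfrsf9 and Batf) and 1 was lower (Btla). The difference was not particular to CD8 cells, as the median was 0.86 in CD4 helper cells and 0.42 in natural killer cells. Ctla4 had ratios of 2.07 and 2.24 in these classes, and B cell barcodes held it at 57.9 and 87.0 CPM.

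Costimulatory receptors had the highest median of the 21 program lists. All 14 listed genes were measured, 7 were higher by 1.5-fold or more, none was lower, and the median was 0.60, beside 0.16 for the same list in CD4 helper cells and 0.37 in natural killer cells. Cd28, the main costimulator of the T cell receptor, was at 383 (359 to 407) and 245 (220 to 273) CPM. Cd27, which binds Cd70 on activated cells, was at 335 (313 to 358) and 198 (175 to 223), and the adhesion receptor Cd2 at 433 (408 to 459) and 281 (254 to 310). Cd5, whose level is set by the strength of receptor signalling, was at 123 (110 to 137) and 55.1 (43.6 to 68.8), ratio 1.15 (0.79 to 1.53). Tnfrsf4 and Tnfrsf9 were higher too, on few UMIs, with 42.4 and 17.0 CPM and with 22.5 and 9.19 CPM. The ratios of Cd28 and Cd2, 0.64 and 0.62, did not exceed that of Trbc2, and that of Cd5 did. In T cell receptor signalling 22 of 23 genes were measured, with a median of 0.31. Higher were 2, the adaptor Lat, 290 and 168 CPM, and the phosphatase gene Ptpn22, and none was lower. The 2 were 9.09% of the measured genes, near the 9.47% over all genes at the list floor. The kinase Zap70 was level at 67.5 and 63.6 CPM.

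**Figure D2:**
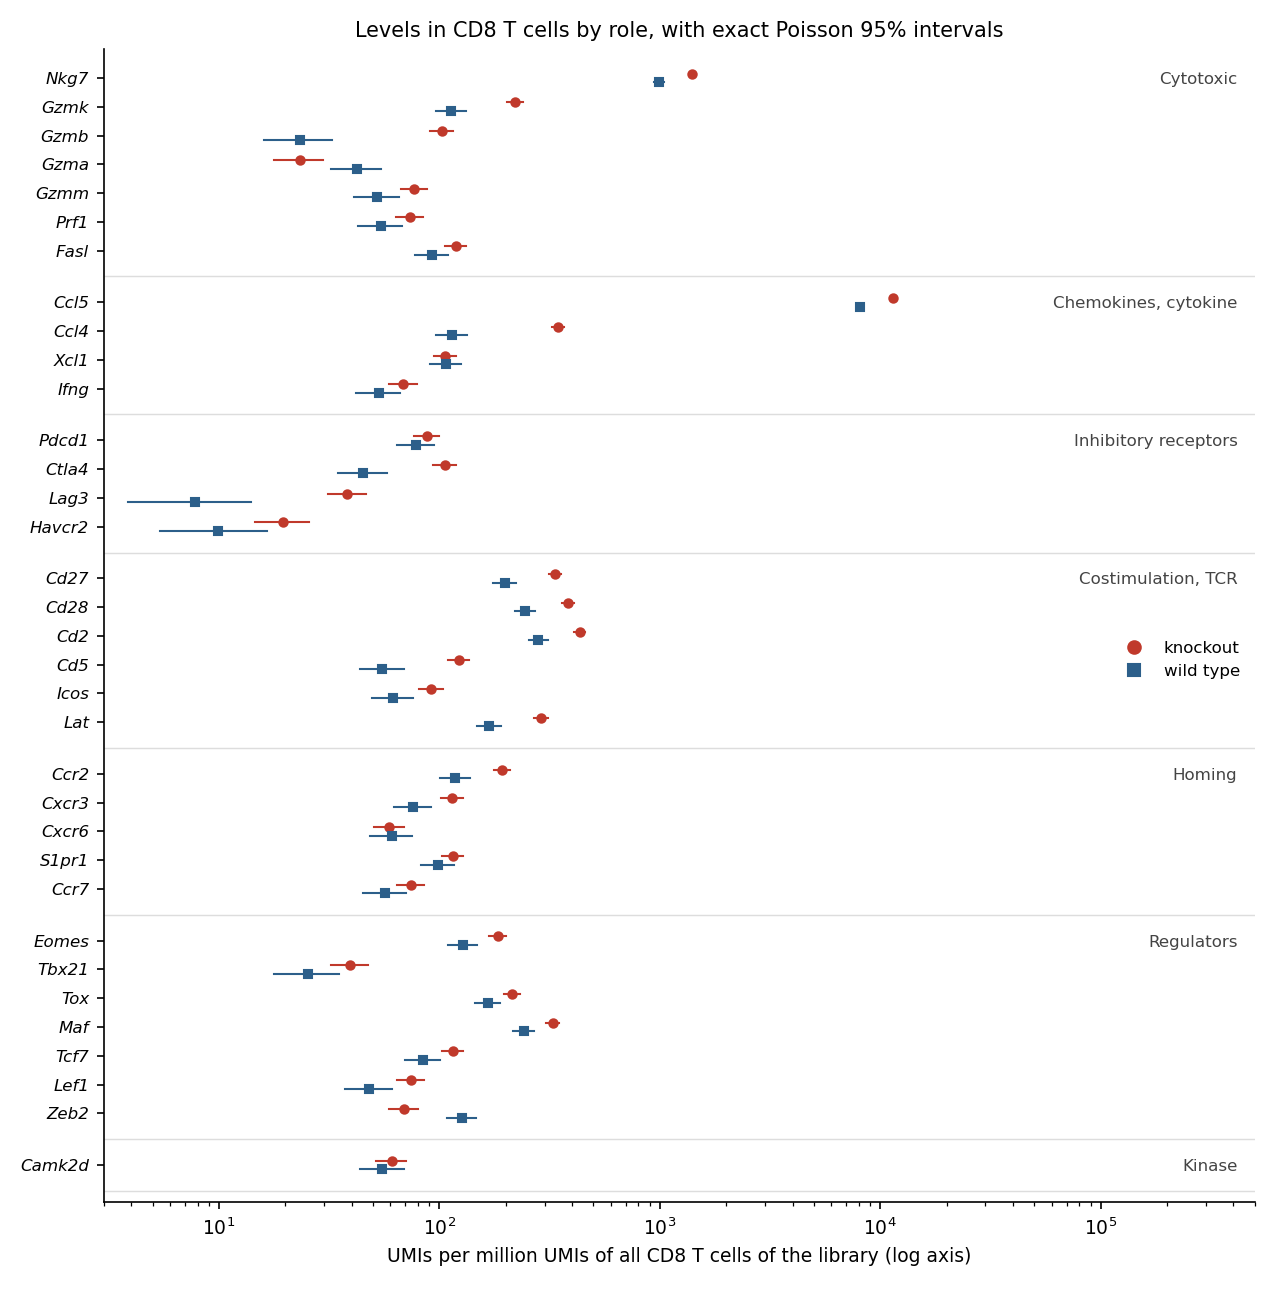
CPM in members (log axis) of the knockout (circles) and the wild type (squares), with exact Poisson 95% intervals, for genes grouped by role. The intervals of Gzmb, Ctla4, Cd5 and Lag3 lie apart, those of Pdcd1, Xcl1, Cxcr6 and Camk2d overlap, and Zeb2 was lower in the knockout. Gzma is also plotted lower, with 33 of its 60 wild-type UMIs in 1 barcode.

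Some receptors that guide cells into inflamed tissue were higher in knockout members. Ccr2, the receptor for monocyte-drawing Ccl2, was at 193 and 118 CPM, ratio 0.71, and Cxcr3, the receptor for interferon-induced chemokines, at 114 and 75.6, ratio 0.59. Cxcr6, by contrast, a receptor of tissue-dwelling T cells, was level at 59.3 (50.4 to 69.3) and 60.8 (48.6 to 75.1). Of 20 chemokine and egress receptor genes 16 were measured, 5 were higher (Ccr2, Cxcr3 and Cxcr4 among them), none was lower, and the median was 0.45. The median of this list was 0.75 in CD4 helper cells and 0.42 in natural killer cells. Of 18 residency genes 14 were measured, with none higher, 1 lower (Jun), and a median of -0.03. Zfp683 was at 0 in both libraries, and Itgae, the integrin of epithelial residency, was found in 1.43% of knockout and 0% of wild-type members, where a count of 0 (read as up to 3 counts) allows a share of cells with an Itgae UMI of up to 1.12%. Cd69, which blocks egress from tissue, was at 259 (240 to 279) and 179 (158 to 202).

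Genes of naive and memory cells were mixed. Satb1, a chromatin organiser, was at 161 (146 to 177) and 89.1 (74.2 to 106) CPM, ratio 0.85. Ccr7 and Il7r, the egress and survival receptors of the same cells, were closer to level at 74.3 and 56.5 and at 215 and 193 CPM. Of 16 naive and memory genes 15 were measured, with 5 higher (Lef1, Satb1, Dapl1 and Rflnb among them), 3 lower (Igfbp4, Actn1 and Ly6c1) and a median of 0.22. Satb1 is also transcribed by B cells, and the lower Igfbp4, at 18.8 and 58.0 CPM, is abundant in stroma. All 15 memory and cytokine-driven genes were measured, and 5 were higher (Cxcr3, Ccr2, Gzmk and Klrc2 among them), none lower, with a median of 0.45. Klrc2, an activating receptor of the NKG2 family, was at 64.1 (54.9 to 74.5) and 26.2 (18.4 to 36.0), whereas Klrk1, which encodes NKG2D, was level at 237 and 223. Ly6c2, a glycoprotein of antigen-experienced cells, was at 751 and 547 CPM and was found in nearly equal shares of thinned members, 42.7% and 42.5%. Of 12 measured terminal effector genes 5 were higher (Klrg1, Tbx21, Id2, Gzmb and Klre1) and 2 lower (Zeb2 and, through 1 wild-type barcode, Gzma), with a median of 0.37, and Klrg1 itself was low at 21.0 and 10.6 CPM.

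Among the transcription factors that set CD8 fate, Eomes, which drives memory and Gzmk-type effector states, was at 184 (168 to 201) and 128 (110 to 148) CPM. It was more abundant than its relative Tbx21 in both libraries, at 39.4 and 25.4. Tcf7, which keeps a self-renewing pool, was at 115 and 84.1, and Maf at 327 and 242. Zeb2, a factor of terminal effectors that macrophages also express, was lower at 69.0 (59.4 to 79.7) and 127 (109 to 147). Of 31 factors listed 30 were measured, 6 were higher (Tbx21, Lef1, Id2, Ikzf3, Batf and Satb1), 2 were lower (Id3 and Zeb2), and the median was 0.30. These comparisons of level count 3′ transcript ends, so gene length does not enter.

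In CD8 cells, which lie outside the myeloid lineage, Camk2d did not differ beyond counting error. It was at 60.8 CPM (51.8 to 70.9) in knockout and 55.1 (43.6 to 68.8) in wild-type members, ratio 0.14 (-0.26 to 0.55), with UMIs in 106 and 63 members. After thinning, 10.5% (7.53 to 14.2) and 5.97% (3.45 to 9.51) of members had a Camk2d UMI, beside 4.56% and 7.83% of macrophage barcodes. Of 27 genes of calcium, calcineurin and NFAT signalling 25 were measured, with a median of 0.02. At 1.5-fold 4 were higher (Orai1, Nfatc3, Ppp3cc and Itpr3) and 3 were lower (Egr1, Egr2 and Rcan1). The 4 were 16% of the measured genes, and over all genes at the list floor 9.47% were higher and 13.3% lower. These counts are not read as a result about the list. Orai1, the pore of the store-operated calcium channel, was at 184 (168 to 201) and 96.8 (81.3 to 115) CPM, ratio 0.92. Its sensor Stim1 was at 81.8 and 60.1, and the calcium-regulated kinase Camk4 was level at 17.3 and 17.0. The 3 lower genes are quickly induced calcium and growth-factor targets.

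Some immediate early and stress genes were lower in knockout members. Of 29 listed 28 were measured, none was higher, 6 were lower (Fos, Jun, Egr1, Atf3, Klf4 and Hspa1a), and the median was -0.28. Only 3 of the 28 were member-side genes, none of them was lower, and their median was 0.27. The median of the whole list was -0.29 in CD4 helper cells and -0.30 in natural killer cells. Jun, a subunit of AP-1, was at 161 (146 to 177) and 342 (312 to 374) CPM and Egr1 at 127 (114 to 141) and 360 (330 to 393). Progenitor barcodes held Jun at 4113 and 2958 and Egr1 at 4762 and 2753, far above the members. How much of the message in members came from stroma was not tested.

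Interferon-induced genes were higher in part. Of 33 type I interferon genes 28 were measured, 11 were higher, 3 lower (Ifit1, Xaf1 and Slfn5), and the median was 0.29, beside 0.96 for the list in CD4 helper cells. Ly6a, the Sca1 antigen that activated T cells gain under interferon, was at 263 (244 to 284) and 105 (88.4 to 123) CPM, ratio 1.33 (1.07 to 1.60). It was also abundant in progenitors, where 67.5% and 67.0% of thinned barcodes carried it against 25.6% and 17.2% of members. Ifi27l2a was at 583 and 339, and Isg15 was low at 24.0 and 12.7. In the interferon gamma list 23 of 26 genes were measured, 3 were higher (Gbp6 and Tap2 among them), 1 was lower (Ifngr2), and the median was 0.37. The 3 were 13.0% of the measured genes, beside 9.47% of all genes at the list floor. The nonclassical class I gene H2-T23 was at 231 (214 to 250) and 118 (101 to 137) CPM.

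Proliferation genes were higher in the knockout as summed UMIs, while the share of members with Mki67 was not. All 20 cell cycle genes were measured, 8 were higher, none lower, and the median was 0.38. Mki67, the marker of cycling cells, was at 141 and 97.5 CPM, yet it was found in 6.55% (4.199 to 9.67) and 7.09% (4.32 to 10.9) of thinned members, and in 3.99% and 8.11% of macrophage barcodes. Without members that had a UMI of Ncr1, Trdc, Foxp3, Cd79a or Lyz2 the median of this list was -1.47, on 129 and 37 members. The histone genes of replication ranked among the highest ratios, with Hist1h2ab at 81.0 and 31.1 CPM and Hist1h2ap at 306 and 138, and their UMIs came from few cells. For Hist1h2ab 67 of 216 knockout UMIs and 16 of 44 wild-type UMIs sat in 1 barcode each. With each member weighted equally, the log2 ratios were 0.94 for Hist1h2ab, 0.70 for Hist1h2ap and 0.53 for Hist1h2ae. They were 0.46 for Hist1h1b and 0.35 for Pclaf, so none of these genes passed 2-fold in that form.

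Metabolic lists showed little difference apart from that of lipid uptake. Of 22 oxidative phosphorylation genes all were measured and none passed 1.5-fold in either direction, with a median of 0.08. Of 16 measured glycolysis genes 2 were higher and 1 lower, with a median of 0.03, and Gapdh was at 820 and 785 CPM. Lipid uptake and oxidation had the lowest list median, -0.55, with none of 14 measured genes higher and 7 lower (Cd36, Fabp4, Fabp5, Abca1, Abcg1, Scd2 and Plin2), but only 2 of the 14 were member-side genes. Plin2, which coats lipid droplets, was at 52.1 and 378 CPM, and 343 of its 535 wild-type UMIs sat in the barcode of 65460 UMIs. Among survival and death genes 2 of 20 were higher (Fas and Gimap4) and 1 lower (Bcl2l1), median 0.06, and the anti-apoptotic Bcl2 was at 262 and 310. Cytokine receptors had 3 of 20 higher (Il4ra, Il21r and Il27ra) and 2 lower (Ifngr2 and Il1rl1), median 0.17. The higher genes were 12.5% of the glycolysis, 10% of the survival and 15% of the cytokine receptor genes measured. Over all genes at the list floor that share was 9.47%. Pfn1, the actin-binding profilin and the most abundant gene past 2-fold among member-side genes, was at 1555 (1508 to 1603) and 755 (710 to 802) CPM.

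**Figure D3:**
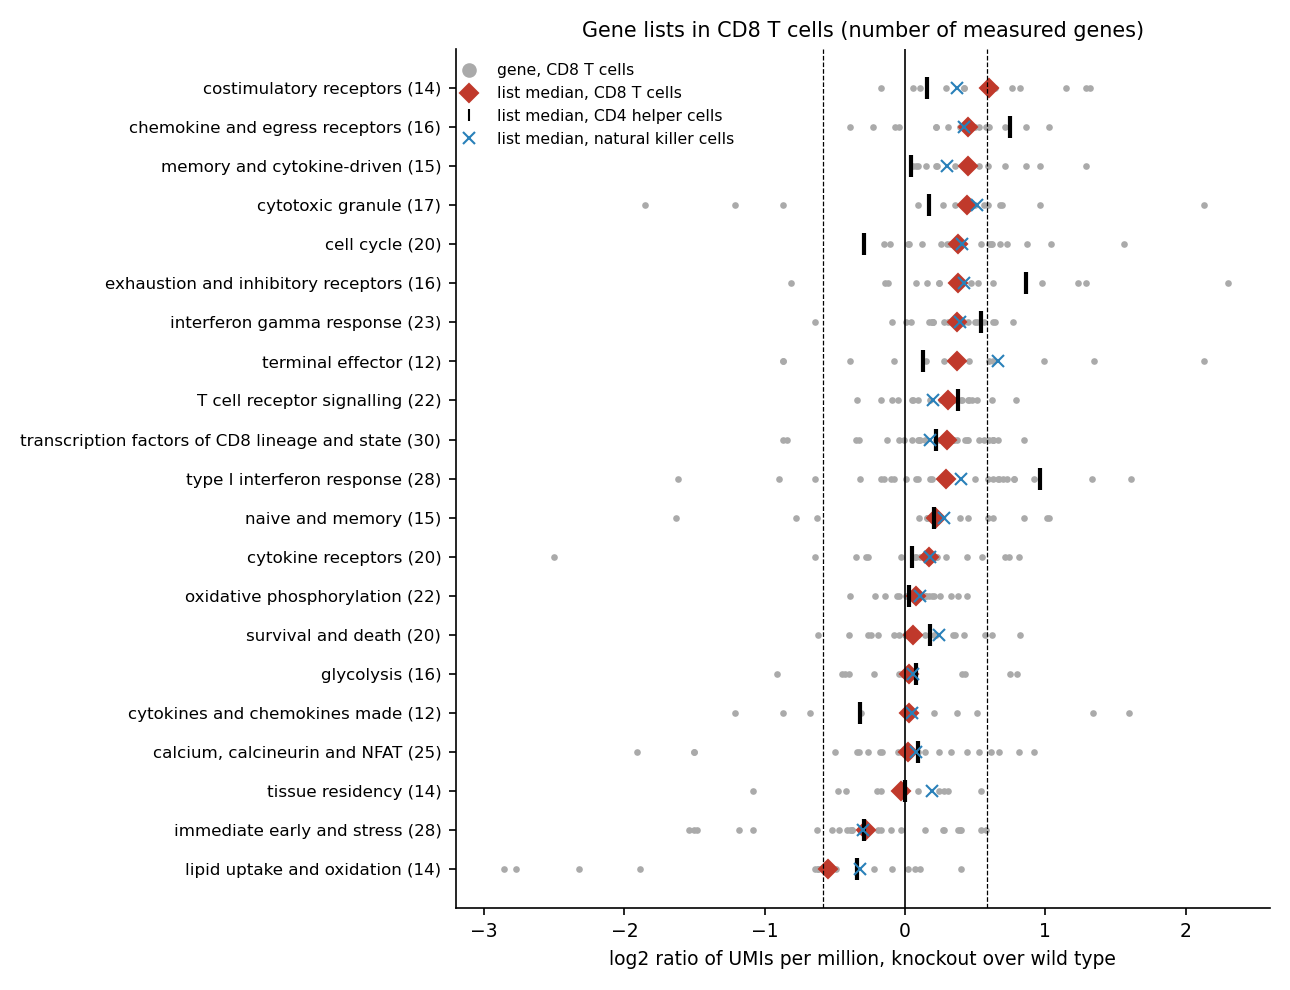
Grey points are the measured genes of each list on the log2 ratio of knockout over wild type in CD8 T cells, diamonds are list medians in CD8 T cells, vertical ticks those in CD4 helper cells and crosses those in natural killer cells. Dashed lines mark 1.5-fold. Costimulatory receptors have the highest CD8 median, 0.60, and lipid uptake and oxidation the lowest, -0.55.

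Within each library CD8 cells were set beside the lymphocytes most like them, as description, since gating chose all of these classes by transcripts. Against CD4 helper cells, members carried more of the natural killer receptors and of killing genes in both libraries. Klrc1 was at 69.8 CPM in CD8 and 5.75 in CD4 helper cells of the knockout, and at 62.9 and 5.29 in the wild type. Klrd1, its partner chain, was at 111 and 14.6 and at 81.3 and 15.9. Cd40lg, the help signal of CD4 cells, ran the other way at 3.0 and 160 and at 1.41 and 106. The wild-type comparison rests on 46 CD4 helper cells with 188992 UMIs. Against natural killer cells, members held Gzmk at 220 and 2.87 CPM in the knockout, and at 113 with a listed 0 in natural killer cells of the wild type, while Gzma was at 23.3 and 3994 and at 42.4 and 2328. Gzmb was found in both, in 11.7% and 3.36% of thinned members and 23.6% and 18.8% of thinned natural killer cells. Themis, a T cell development gene, was at 147 and 0.957 in the knockout. Against gamma delta cells, Cd163l1, a scavenger receptor gene of gamma delta cells, was at 0.375 and 537 CPM and at 2.83 and 612, and Ccl5 was at 11460 and 1778 and at 8054 and 394.

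**Figure D4:**
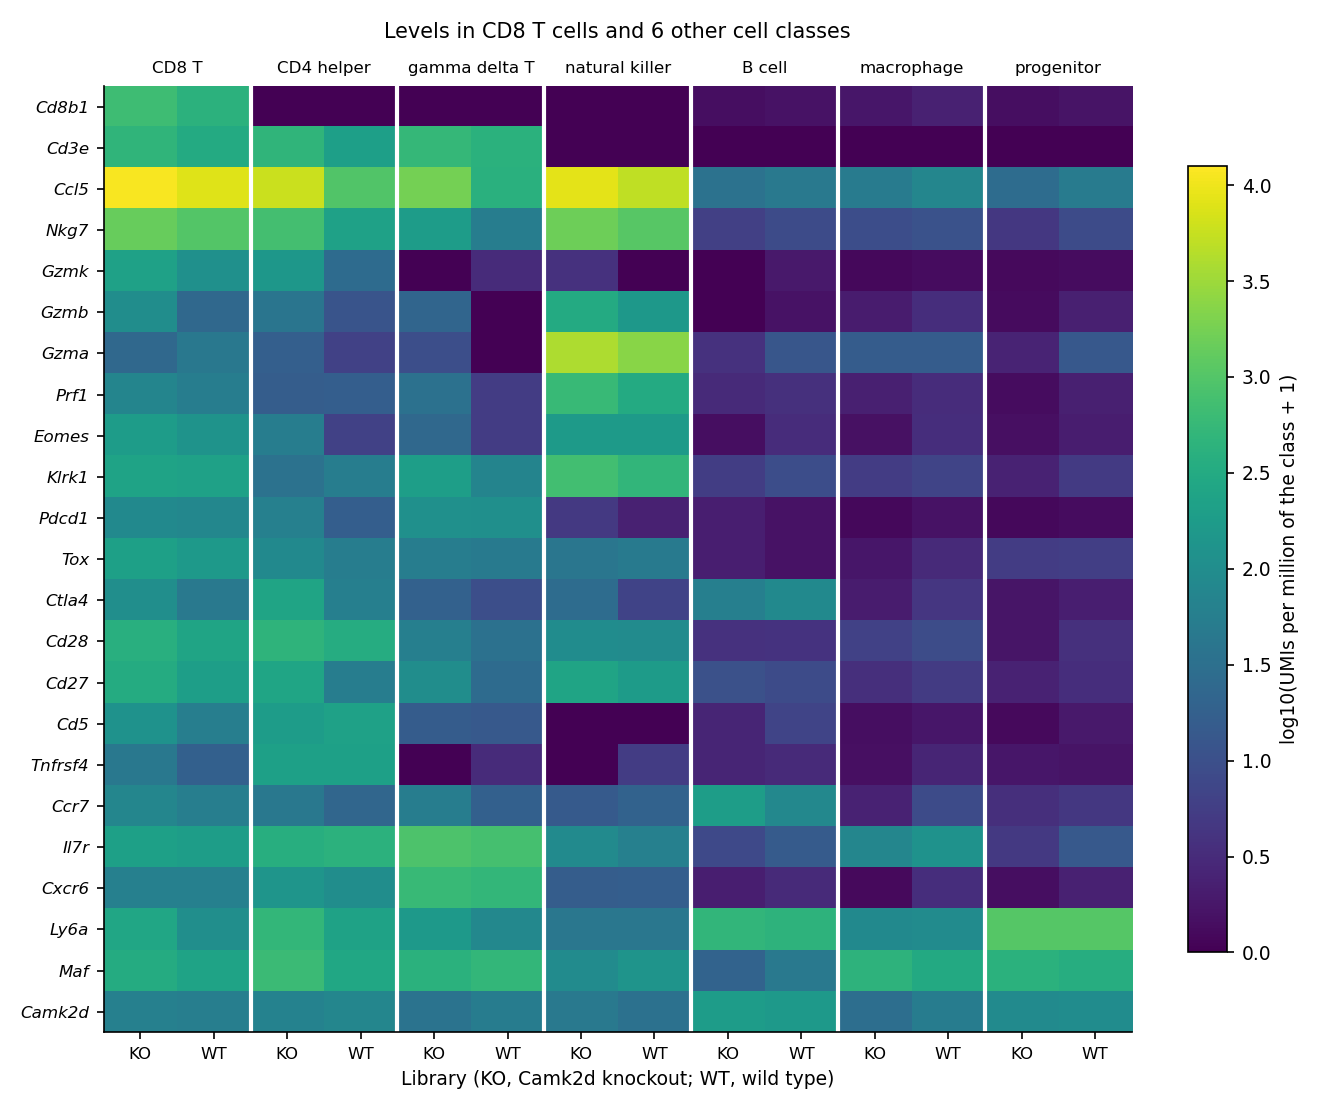
Colour gives log10 of CPM plus 1 in CD8 T cells and in 6 other gated classes, with the knockout and wild-type columns side by side. Cd8b1 and Cd3e were used by the gates, Gzmk and Tox are highest in CD8 T cells among these classes, and Gzma is high in natural killer cells (3994 and 2328) and low in CD8 T cells.

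CD8 cells were divided by Leiden clustering, and the genes that define the clusters are given as description. Clustered together (Leiden, resolution 0.5), the members split by library more than by state, since 229 of the 231 cells of one cluster were wild type and led by Fstl1 and Col1a2, and 189 of the 191 of another were knockout. Each library was therefore also clustered alone, a choice made after the data were seen. Both then gave a large cluster, a smaller one with Satb1 and Ccr7 among its leading genes (the Satb1 cluster), a cycling one and barcodes mixed with antigen-presenting cells. The Satb1 cluster held 114 of 351 knockout cells (32.5%, 27.6 to 37.7) and 49 of 268 wild-type cells (18.3%, 13.8 to 23.4), and in the joint clustering the corresponding cluster held 35.04% and 3.36%. As the genes that define the clusters differ in level between the libraries, these shares are not read as a difference. In both Satb1 clusters 8 naive CD8 markers (Ccr7, Lef1, Tcf7, Dapl1, S1pr1, Il7r and Satb1 among them) stood 2-fold or more above the other members. They were not named naive-like because genes of effector and memory cells were among their leading genes. These were Klrc2 and Klre1 in the knockout and Gzma, Gzmm and Klrc1 in the wild type. Of these Gzma rested largely on 1 barcode, which held 33 of the 60 UMIs of wild-type members. Ly6c2 was at 1227 and 1203 CPM there, against 465 and 406 in the large clusters, and Ccl5 was at 8651 and 7015, below the large clusters. The large cluster of the knockout, 200 cells, carried 8 exhaustion markers at 2-fold (Pdcd1, Lag3, Tox, Havcr2, Entpd1, Tnfrsf9, Bhlhe40 and Rgs16) and 5 effector memory markers (Gzmk, Eomes, Ccl5 and Nkg7 among them). In the large cluster of the wild type, 191 cells, 2 exhaustion markers (Pdcd1 and Tox) passed. Lag3 is not among these 2, although it was at 11.1 CPM inside this cluster and 1.94 outside, on 10 UMIs. Wild-type members held fewer UMIs in all (1414901 against 2666364), so the counts of 8 and 2 markers are not compared. Leading genes of this wild-type cluster were of macrophages (Mmp12, Gpnmb and Ctsl), and it included the barcode of 65460 UMIs, so it was left unnamed.

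Levels were also set side by side within the large and the Satb1 clusters, as description. Each cluster was drawn from the variable genes of its own library, so the clusters of the libraries are not matched cell states. Genes compared here may have helped to define them, and the intervals cover counting error only. Gzmb was at 161 CPM in the knockout's large cluster and 20 in the wild type's (log2 ratio 3.01, 2.31 to 3.79), and at 24.3 and 21.4 in the Satb1 clusters (0.18, -1.17 to 1.78). Gzmk was at 353 and 127 in the large clusters and at 48.5 and 24.9 in the Satb1 clusters. Trbc2 had ratios of 1.06 and 0.15. Ccl5 was at 17470 and 8667 in the large clusters and Tox at 356 and 220. Pdcd1 was at 146 and 104 in the large clusters (0.49, 0.11 to 0.86) and at 39.3 and 10.7 in the Satb1 clusters (1.88, 0.21 to 4.23, on 34 and 3 UMIs). Lag3, at 70.9 and 11.1 in the large clusters, and Ccr2, at 229 and 96.7, were higher in the knockout, whereas Klrk1 was lower at 135 and 228 and Cd44 was level at 161 and 163. The difference between the clusters in these ratios was not tested. Hbb-bs was higher in the wild type in both, with 2273 and 4706 in the large clusters and 1440 and 5200 in the Satb1 clusters.

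**Figure D5:**
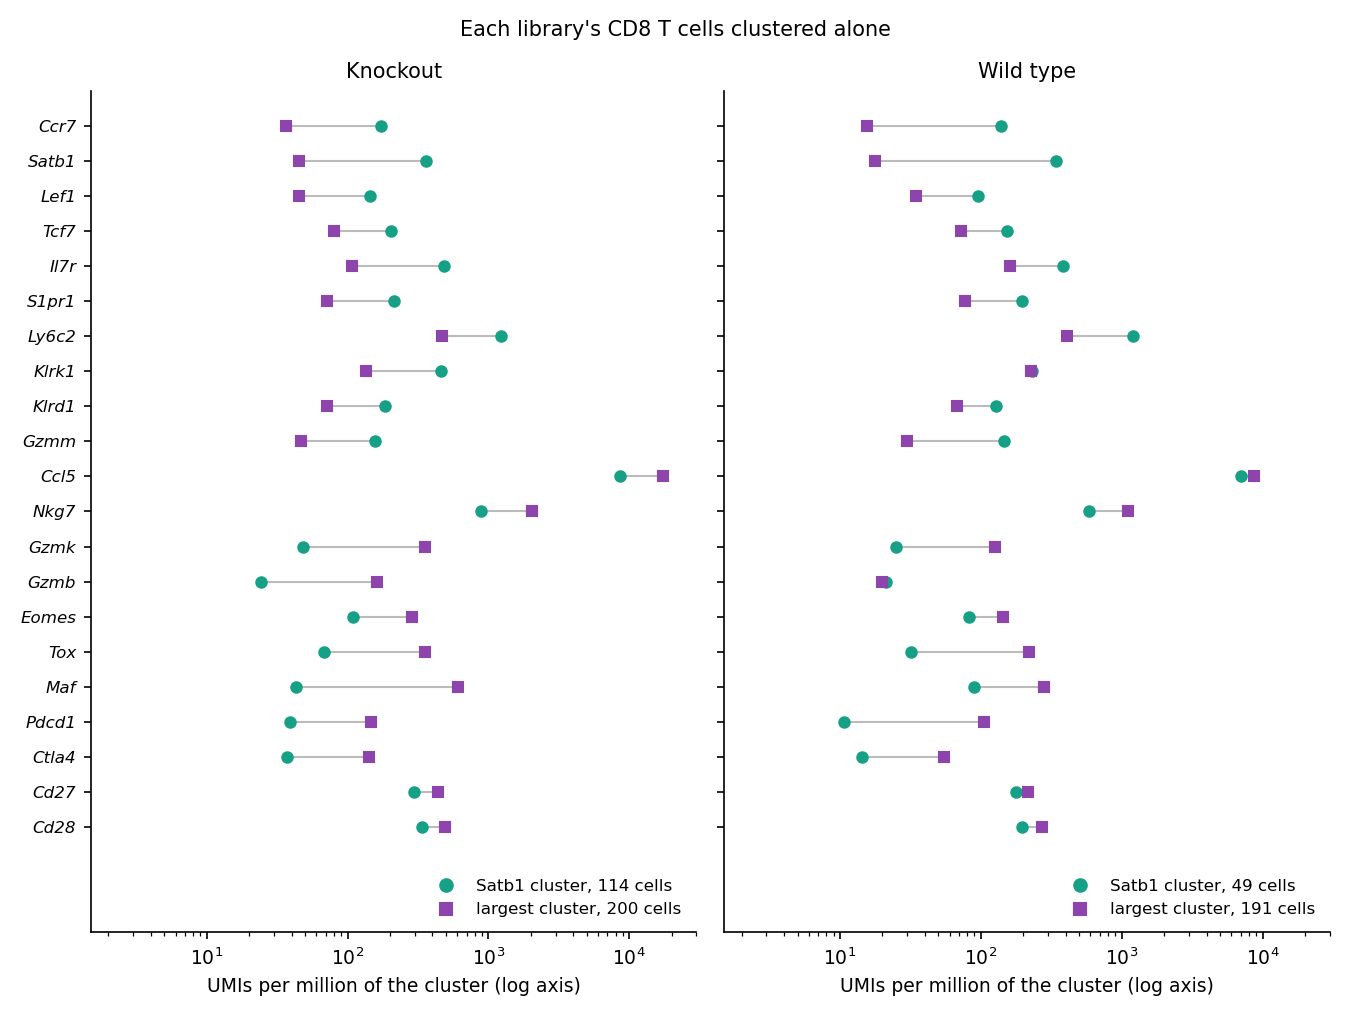
CPM (log axis) in the Satb1 cluster (circles) and the largest cluster (squares) of each library clustered alone. Ccr7, Satb1 and Ly6c2 are higher in the Satb1 cluster and Gzmk, Tox, Maf and Pdcd1 in the largest cluster of both libraries, while Gzmb differs between clusters in the knockout (24.3 and 161) and not in the wild type (21.4 and 20).

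The same genes were counted in single members thinned to 1500 UMIs. Members with a Tox UMI had a UMI of Pdcd1, Lag3, Ctla4 or Havcr2 in 45.0% of 109 knockout and 33.9% of 62 wild-type cases, and those without in 28.1% and 15.1%. Members with a Gzmk UMI had a Tox UMI in 37.6% of 109 and 41.7% of 36 cases, and those without in 28.1% and 20.3%. Members with Tox message thus had the higher share of inhibitory receptor message in both libraries, although these genes also helped to define the clusters and no test was run over cells. The cycling clusters held 17 knockout and 11 wild-type cells with all 10 cycling markers at 2-fold. B and plasma cell markers were found in 62.4% of knockout and 69.0% of wild-type members, and 1 knockout barcode of 30541 UMIs gave 8819 of the 9344 Igkc UMIs and 1099 of the 1109 Jchain UMIs. Without it Igkc was at 199 CPM in the knockout, beside 197 in the wild type.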

How the data were processed

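Both libraries were prepared with 10x Genomics 3′ chemistry, and per the submitters' processing notes Cell Ranger 5.0.0, Seurat 4.1.1 and the mm10 build were used. The authors deposited whole-number UMI counts per gene and barcode, not normalized, with 32285 genes. No cell annotation was used. Members, gene lists and tests were chosen with earlier results of these data known.

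UMI counts were summed over members per library and divided by the class total (CPM). Ratios carry exact conditional intervals, CPM exact Poisson intervals and shares Clopper-Pearson intervals, and a count of 0 was read as 3 in a ratio. With 1 library per genotype no test between genotypes was run. Named genes were the 12 highest and 12 lowest ratios at 50 CPM and 30 UMIs, for each list the most abundant measured gene and the one with the largest ratio, the 10 leading genes against like cells, and genes needed for a role, leaving out genes of the gates, ribosome, mitochondrion and haemoglobin, and segments of antigen receptors. Immunoglobulin and haemoglobin genes were given only as measures of other-cell RNA. There were 21 lists of CD8 programs and 15 of other cells.

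Scrublet (scanpy 1.11.5) set no usable automatic limit in the wild type (0 of 13085), so a score of 0.25 was used for an alternative. Clusters came from log values of 1000 variable genes, 20 components and 15 neighbours. Gene totals were also simulated as Poisson draws from the pooled member means, without spread between cells or single full barcodes. On these, 96.4% of intervals for 2461 genes held the true ratio, and 0 of 2261 unchanged genes passed 2-fold. That checks the calculation only, and it does not show how many 2-fold calls in the real counts are sound. Alternatives were other scalings, CPM floors, folds, Cd8 and depth limits, per-cell weighting, and leaving out doublets, mixed, very large or other-marker barcodes. A few genes are not reported here.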

Additional observations from a re-analysis of the deposited data

Results flagged for a closer look

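Cxcl2, a neutrophil-drawing chemokine, was lower in knockout than in wild-type CD8 T cells, at 119 and 300 CPM (log2 ratio -1.33), and higher in knockout CD4 helper cells, with a log2 ratio of 1.62. The directions are opposite with 1 library per genotype, and the difference was not tested. The CD4 helper ratio rests on 46 wild-type cells with 188992 UMIs. Whether the Cxcl2 message came from the T cells or from other-cell RNA was not tested.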

How the results depend on the processing

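No paired analysis was possible because each genotype has 1 library. Weighting each subcluster equally was not run, since joint subclusters held as few as 2 cells of a library. Against 18 higher and 79 lower genes, the counts were 51 and 217 at a floor of 20 CPM, 164 and 302 with no floor, 9 and 46 at 100 CPM, 137 and 120 at 1.5-fold, 5 and 39 at 3-fold, 10 and 1 among member-side genes, and 92 and 36 without members that had a UMI of Ncr1, Trdc, Foxp3, Cd79a or Lyz2 (129 and 37 members kept). Scaling to member-side genes left 8 higher. With those members left out, ratios reversed for Hist1h2ab (-3.15), Hist1h2ap (-1.92), Hist1h2ae (-2.20), Hist1h1b (-2.10), Pclaf (-2.0), Rrm2 (-0.57) and Ccl3 (-0.42), and the cell cycle list median was -1.47; the cause was not tested. Klra7 reversed (-1.27) at a Cd8 sum of at least 3. The log2 ratio of the CD8 share of all filtered barcodes was 0.68 at 2500 UMIs and 800 genes, 0.72 and 1.55 at Cd8 sums of 1 and 3, and 2.24 after thinning, where 125 and 43 members remained. The ratio of the share among Cd3 barcodes was -0.38 and 0.46 at Cd8 sums of 1 and 3 and 0.67 after thinning. The knockout Satb1 cluster held 28.5% at resolution 0.3 and 41.3% without ribosomal and immediate early genes, and the wild-type one 18.3% when clustered alone. Of 135 gene ratios, those moved beyond their intervals numbered 0 under TMM scaling and the stricter depth limits, 1 without doublets, 10 under median-of-ratios scaling, 20 without the mixed subcluster, 22 without members over 20000 UMIs, 24 at a Cd8 sum of at least 3, 29 with per-cell means and 43 when scaled to member-side genes, and 72 of 132 without members with those other-cell markers.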
